A study of Mus musculus with 8 samples.

Results

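The proteasome genes of the mouse heart were followed across 4 groups of hearts that had received doxorubicin (DOX) or saline with or without the metallothionein genes. The genes were taken by symbol: every probe set whose single annotated gene symbol begins with Psma, Psmb, Psmc, Psmd or Psme and a digit, with the inducible subunits Psmb8 and Psmb9 left out. That rule took in 88 of the 45101 probe sets on the array, covering 42 of 18194 annotated genes. They fall into 31 probe sets of 17 core particle genes, 44 of 20 genes of the regulatory particle and its assembly factors, 10 of 3 activator genes, and 3 of 2 genes, Psmc3ip and Psme3ip1, whose symbols fit the rule although their products are not subunits.

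The proteasome is the large protease that degrades ubiquitin-tagged proteins. Its barrel-shaped core particle is built from alpha subunits, which form the outer rings and the gate, and beta subunits, which form the inner rings and carry the proteolytic sites. The regulatory particle sits on the barrel and consists of a base, with an ATPase ring that unfolds substrates and pulls them in, and a lid that removes ubiquitin, while the Psme activators are alternative caps that open the gate. Heart muscle depends on this system for the turnover of contractile proteins, and DOX is an anthracycline cancer drug with known toxicity to the heart.

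Whole hearts of male mice aged 6 to 8 weeks were measured on 8 one-colour Affymetrix arrays, 2 biological replicates in each of 4 groups. The groups were MT-/- mice given DOX, MT-/- mice given saline, MT+/+ mice given DOX and MT+/+ mice given saline. MT-/- mice are described as MT-Ⅰ/Ⅱ null and MT+/+ mice as the corresponding wild type; DOX was 1 intraperitoneal dose of 15 mg/kg, saline was given in equal volume, and hearts were taken on day 4. No source used here gives the kind of null allele, the strain or any other allele that the groups share.

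Several features of the arrays bear on every comparison. The arrays labelled MT-/- carried signal for both metallothionein genes. Deposited Mt1 intensity was 4667 to 12850 on the MT-/- arrays and 3722 to 9285 on the MT+/+ arrays, and Mt2 was 968 to 2218 against 452 to 2732. Under saline, Mt1 was 4667 and 5322 on the MT-/- arrays against 3722 and 4034 on the MT+/+ arrays. Saline Mt2 was 968 and 1018 against 452 and 485. These values do not bear out the genotype labels, which were used as given. Whether these probe sets lie in the deleted sequence is not known. The deposited array medians were 80.0 to 87.4, correlations between arrays spanned 0.976 to 0.984 within a group and 0.924 to 0.985 across groups, so some arrays were as alike across groups as within one. The actin 3′ to 5′ intensity ratio, a sign of RNA integrity, was 0.914 to 1.18 on DOX arrays and 1.14 to 1.24 on saline arrays. The same ratio for Gapdh was 0.9925 to 1.039 on DOX arrays and 0.984 to 1.048 on saline arrays. Cell type markers moved with DOX, counted at limma adjusted p under 0.05 and averaged over genotypes. On that count 7.03% of all probe sets rose and 6.84% fell. All 9 macrophage markers fell, with a summed intensity of 4711 to 6061 on DOX arrays against 8934 to 11116 on saline arrays. Also lower were 6 of 9 fibroblast, 5 of 10 cardiomyocyte, 2 of 7 endothelial and 1 of 4 red cell markers, and 3 of 5 neutrophil markers rose. Summed neutrophil marker intensity was 2768 to 3596 with DOX against 687 to 695 with saline in MT-/- hearts, and 1006 to 1049 with DOX against 909 to 1507 with saline in MT+/+ hearts. Of 9 lymphocyte markers 5 stayed below the signal filter; of the 4 tested, 1 fell, Ptprc, which all white blood cells carry (log2 -1.08 ± 0.098, adjusted p = 0.000412), and 0 were positive. Summed over all 9, lymphocyte marker intensity was 601 to 657 on DOX arrays against 754 to 786 on saline arrays. The tissue label was borne out by strong cardiomyocyte signal, with the 10 markers summing to 127232 to 136636 on DOX arrays and 141309 to 144735 on saline arrays. In whole hearts, fewer cells of a type and less RNA per cell cannot be told apart, and the part of these shifts in the proteasome results was not tested.

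Of the 88 probe sets, 66 were at or above the array median on 2 or more of the 8 arrays and were tested, and 60 of them were so on all 8. They covered 40 of the 42 genes. The 22 others included every probe set of Psma8, known as a testis-specific alpha subunit, and of Psmb11, the thymus-specific beta subunit. For each gene the brightest tested probe set stands for it below, values are quantile-normalised intensities on the deposited linear scale, and changes are differences of log2(intensity + 16), DOX minus saline, ± SE from limma with 2 arrays per group. P-values were adjusted by the Benjamini-Hochberg method over all 24751 probe sets tested, and a change was called at adjusted p under 0.05.

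After DOX, averaged over both genotypes, 9 genes of the regulatory particle and 1 of the core particle rose, and 2 of the 3 activator genes fell. Of the 66 tested probe sets, 16 were called higher, where 7.03% of all probe sets were, and 4 were called lower, where 6.84% were. In genes, 10 of 40 rose and 2 fell. Of the 20 regulatory particle and assembly genes, 9 rose, 0 fell and 19 had a positive change, with a median of 0.36 (log2). Of the 15 core genes, 1 rose, 0 fell and 9 were positive, with a median of 0.05. Over all 13008 tested genes the median was -0.01 and 47.9% were positive. Among the 3 activator genes 2 fell and the median was -0.45. Psmc3ip (log2 0.04, adjusted p = 0.84) and Psme3ip1 (log2 -0.18, adjusted p = 0.442), which are not subunits, were not called.

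**Figure D1:**
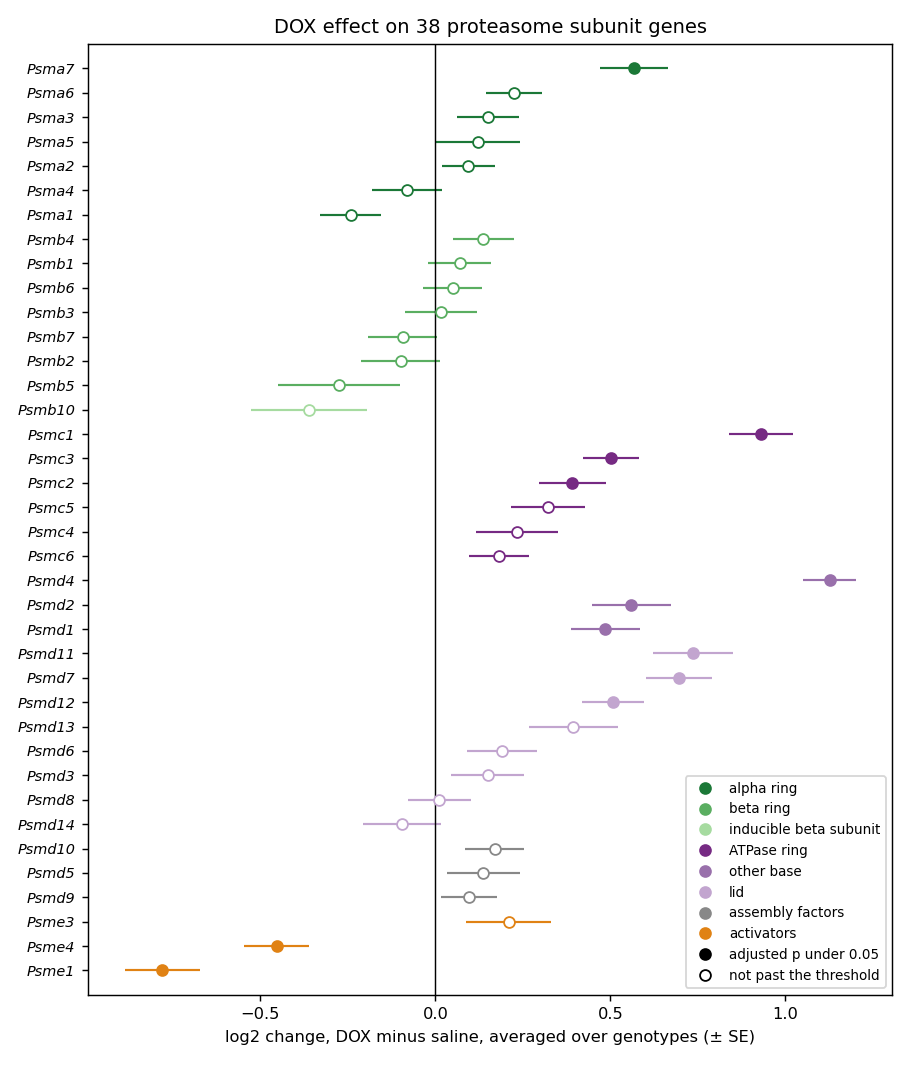
Log2 change after DOX (DOX minus saline, averaged over genotypes; x axis) for the 38 tested subunit, assembly factor and activator genes, grouped by class down the page; points are limma estimates, bars ± SE, filled where adjusted p is under 0.05. Filled points right of 0 are 9 regulatory particle genes and Psma7, and those left of 0 are Psme1 and Psme4.

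The plot of changes by class shows where the calls lay. By median, the ATPase ring (6 genes, 3 rose, median 0.36), the other base subunits (3 genes, 3 rose, median 0.56) and the lid (8 genes, 3 rose, median 0.29) lay above the alpha ring (7 genes, 1 rose, median 0.12) and the beta ring (7 genes, 0 called, median 0.02). The 3 regulatory particle assembly factors had 0 calls and a median of 0.14. These counts and medians describe the genes, and no test of one class against another was made.

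The particles were also compared array by array, as a mean over genes of the log2 difference from the saline arrays of the same genotype. For the 17 regulatory particle subunits the mean was 0.488 and 0.479 on the MT-/- DOX arrays, where the saline arrays of that genotype lay 0.0205 to either side of 0. It was 0.353 and 0.401 on the MT+/+ DOX arrays, where the saline arrays lay 0.00808 to either side. For the 15 core genes it was 0.129 and -0.0598 with DOX in MT-/- hearts (saline 0.0543 to either side) and 0.00299 and 0.00152 with DOX in MT+/+ hearts (saline 0.0571 to either side). All 4 DOX arrays thus stood above the saline arrays for the regulatory particle, while for the core only 1 of them, the MT-/- DOX replicate 1 array, did. When that array was left out of the fit, the median log2 change averaged over genotypes was -0.01 for the 15 core genes. It was 0.30 for the 20 regulatory particle and assembly genes.

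**Figure D2:**
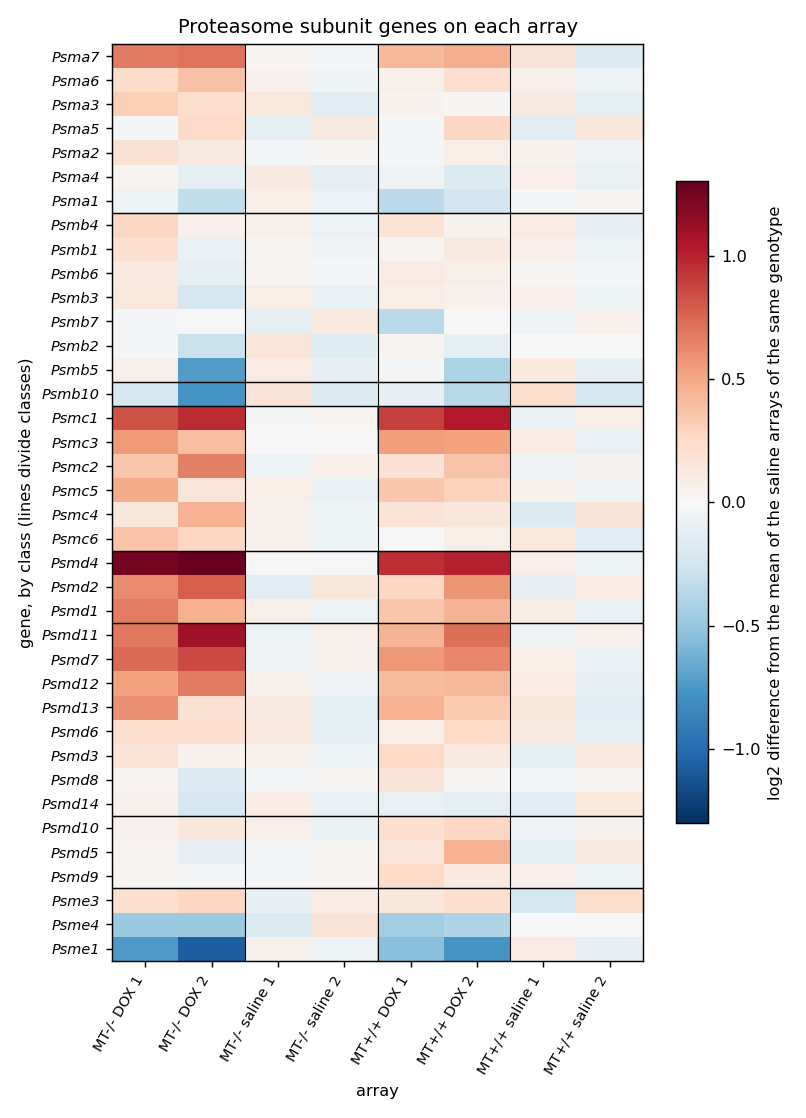
Log2 difference of each array (columns) from the mean of the saline arrays of the same genotype, for the 38 subunit, assembly factor and activator genes (rows, grouped by class); red is higher and blue lower. Most squares of the rows from Psmc1 to Psmd13 are red in the 4 DOX columns, the rows of Psme1 and Psme4 are blue there, and most alpha and beta ring rows are pale.

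Psmd4 showed the largest change of the tested proteasome genes. It encodes Rpn10, a ubiquitin receptor of the regulatory particle base. Its intensity was 3176 and 3316 with DOX against 1344 and 1325 with saline in MT-/- hearts, and 2448 and 2511 with DOX against 1305 and 1194 with saline in MT+/+ hearts. The DOX arrays lay above all saline arrays in both genotypes, with a change of log2 1.13 ± 0.075 (2.18-fold higher, adjusted p = 0.000143). A second probe set gave log2 1.16 ± 0.087 (adjusted p = 0.000192), and another gave log2 0.07 ± 0.097 (adjusted p = 0.717); which transcripts each of them reads is not known from the files.

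The other called base subunits outside the ATPase ring are the scaffold proteins Psmd2 (Rpn1) and Psmd1 (Rpn2), which bind ubiquitin receptors and shuttle factors. Psmd2 had intensities of 2055 and 2305 after DOX against 1208 and 1478 after saline in MT-/- hearts, and 1678 and 2071 after DOX against 1284 and 1497 after saline in MT+/+ hearts, a change of log2 0.56 ± 0.11 (1.47-fold higher, adjusted p = 0.0131). Psmd1 had intensities of 1458 and 1264 after DOX against 959 and 867 after saline in MT-/- hearts, and 1307 and 1384 after DOX against 1083 and 945 after saline in MT+/+ hearts, a change of log2 0.49 ± 0.097 (adjusted p = 0.013). Both had every DOX array above every saline array, but their calls did not hold on every omission of a single array. The Psmd2 call was lost without the MT+/+ DOX replicate 2 array (adjusted p = 0.0509) or the MT-/- saline replicate 1 array (0.0561), and the Psmd1 call without replicate 2 of MT-/- saline (adjusted p = 0.0580), of MT+/+ DOX (0.0516) or of MT+/+ saline (0.0501).

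In the ATPase ring, Psmc1 (Rpt2), whose tail helps to open the gate of the core, rose most. Psmc1 intensity was 1589 and 1755 with DOX against 868 and 904 with saline in MT-/- hearts, and 1463 and 1620.0 with DOX against 740.2 and 833 with saline in MT+/+ hearts. The 2 treatments did not overlap, and the change was log2 0.93 ± 0.092 (1.91-fold higher, adjusted p = 0.000601). Psmc3 (Rpt5), another gate-opening ATPase, had intensities of 2792 and 2492 after DOX against 1902 and 1894 after saline in MT-/- hearts, and 2737 and 2701 after DOX against 2001 and 1752 after saline in MT+/+ hearts, a change of log2 0.50 ± 0.080 (1.42-fold higher, adjusted p = 0.00504). Psmc2 (Rpt1) had intensities of 2120.2 and 2611 after DOX against 1577 and 1725 after saline in MT-/- hearts, and 1984 and 2253 after DOX against 1693 and 1797 after saline in MT+/+ hearts on a probe set of the _x_at type, which can bind other transcripts, a change of log2 0.39 ± 0.096 (1.31-fold higher, adjusted p = 0.0287). Its other probe set gave log2 0.45 ± 0.086 (adjusted p = 0.0107). The Psmc2 call on the brighter probe set was lost on leaving out any one of 6 of the 8 arrays, the replicate 1 arrays of the DOX groups excepted, with adjusted p between 0.0648 and 0.112. The remaining ATPases were positive but not called: Psmc5 at log2 0.32 ± 0.11 (adjusted p = 0.0823), with all DOX arrays above all saline arrays, Psmc4 at log2 0.23 ± 0.12 (adjusted p = 0.246) and Psmc6 at log2 0.18 ± 0.086 (adjusted p = 0.22).

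In the lid, Psmd11 (Rpn6), which clamps the regulatory particle to the core, and Psmd7 (Rpn8), the partner of the deubiquitinase Psmd14, rose most. Psmd11 intensity was 2427 and 3212 with DOX against 1425 and 1574 with saline in MT-/- hearts, and 1944 and 2359 with DOX against 1359.6 and 1499 with saline in MT+/+ hearts. The change was log2 0.74 ± 0.11 (1.67-fold higher, adjusted p = 0.00455), and no DOX array overlapped a saline array. Of its 5 tested probe sets, 2 more rose (log2 0.73 and 0.69), and 2 that were not called gave log2 0.17 and 0.06. Psmd7 intensity was 1126 and 1228 after DOX against 647 and 692 after saline in MT-/- hearts, and 842 and 880.4 after DOX against 603 and 530.1 after saline in MT+/+ hearts, a change of log2 0.70 ± 0.094 (1.62-fold higher, adjusted p = 0.00253); its dimmer probe set gave log2 0.07 ± 0.098 (adjusted p = 0.711). Psmd12 (Rpn5), a lid scaffold subunit, had intensities of 1878 and 2086 after DOX against 1347 and 1257 after saline in MT-/- hearts, and 1837 and 1848 after DOX against 1489 and 1277 after saline in MT+/+ hearts, a change of log2 0.51 ± 0.089 (1.42-fold higher, adjusted p = 0.00754). The DOX arrays of Psmd7 and Psmd12 also lay above all saline arrays. The other 5 lid genes were not called: Psmd13 (Rpn9) was at log2 0.39 ± 0.13 (adjusted p = 0.0754) with no overlap between treatments, Psmd6 at log2 0.19, Psmd3 at log2 0.15, Psmd8 at log2 0.01, and Psmd14 (Rpn11), the enzyme that cuts ubiquitin chains from substrates, at log2 -0.10 ± 0.11 (adjusted p = 0.662).

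**Figure D3:**
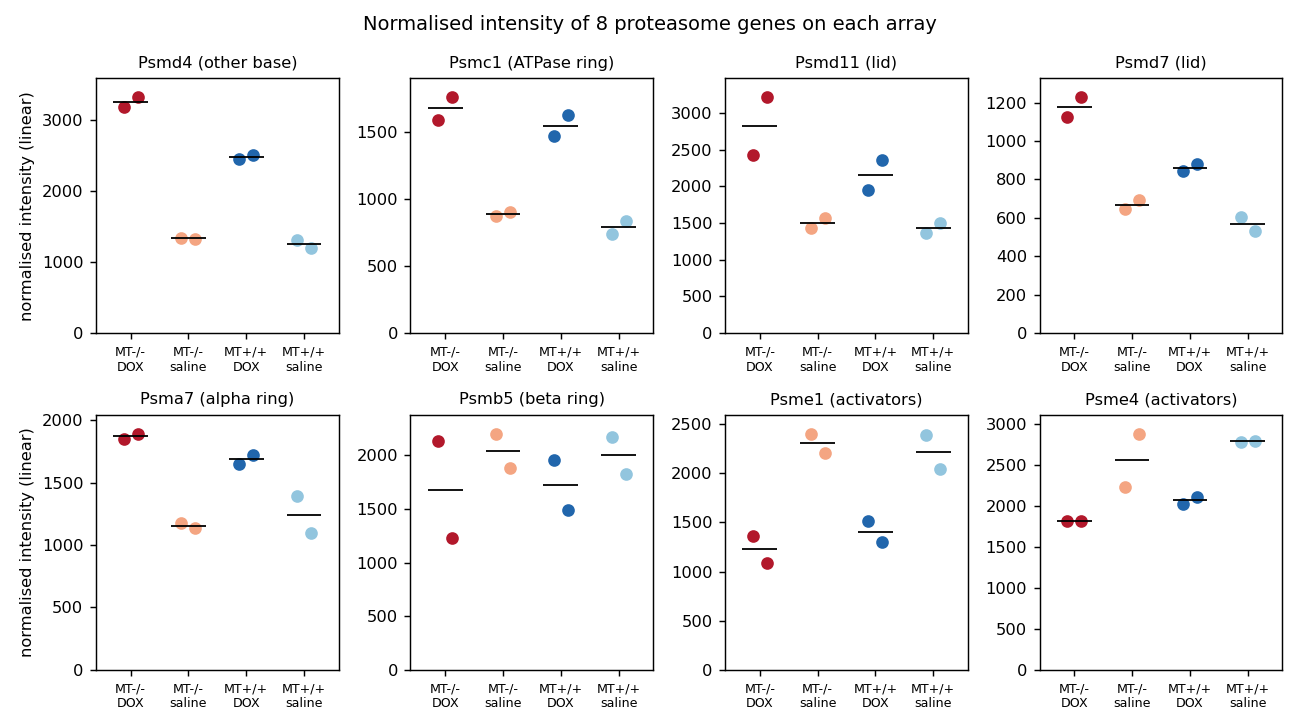
Normalised intensity (linear y axis from 0) of 8 proteasome genes on each array, by group; points are single arrays (replicate 1 left, replicate 2 right) and lines are means of 2. Psmd4, Psmc1, Psmd11, Psmd7 and Psma7 are higher after DOX in both genotypes, Psme1 and Psme4 are lower, and the Psmb5 points of DOX and saline overlap.

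The assembly factors bind the ATPases during construction of the base and leave the finished particle. Psmd10 (gankyrin) had intensities of 204 and 218 after DOX against 209 and 184 after saline in MT-/- hearts, and 186 and 194 after DOX against 153 and 163 after saline in MT+/+ hearts, a difference of log2 0.17 ± 0.084 (adjusted p = 0.243). Psmd5 (S5b) had intensities of 239.7 and 216 after DOX against 228 and 238 after saline in MT-/- hearts, and 242 and 299.8 after DOX against 196 and 234 after saline in MT+/+ hearts, a difference of log2 0.14 ± 0.11 (adjusted p = 0.468). Psmd9 (p27) had intensities of 158 and 154 after DOX against 152 and 158 after saline in MT-/- hearts, and 164 and 148 after DOX against 142 and 128 after saline in MT+/+ hearts, a difference of log2 0.10 ± 0.080 (adjusted p = 0.508). Over both genotypes together, DOX and saline arrays overlapped for all 3 of these genes. Within MT+/+ hearts the DOX arrays lay above the saline arrays for all 3, and within MT-/- hearts they overlapped. None of the 3 was called within either genotype.

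In the core particle, the alpha ring subunit Psma7 was the 1 gene called. Its intensity was 1851 and 1890.0 with DOX against 1179 and 1133 with saline in MT-/- hearts, and 1653 and 1723 with DOX against 1391 and 1096 with saline in MT+/+ hearts. All DOX arrays lay above all saline arrays, and the change was log2 0.57 ± 0.097 (1.48-fold higher, adjusted p = 0.00681); a second probe set gave log2 0.49 ± 0.097 (adjusted p = 0.0128). Psma6 was not called on its brighter probe set, with 2498 and 2763 after DOX against 2199 and 2034 after saline in MT-/- hearts, and 2345 and 2601 after DOX against 2352 and 2135 after saline in MT+/+ hearts, a difference of log2 0.22 ± 0.081 (adjusted p = 0.109). An _x_at probe set of Psma6 was called, at log2 0.31 ± 0.076 (adjusted p = 0.0285). Psma1 had intensities of 1966 and 1653 after DOX against 2171 and 1956 after saline in MT-/- hearts, and 1711 and 1829 after DOX against 2143 and 2197 after saline in MT+/+ hearts, a difference of log2 -0.24 ± 0.088 (adjusted p = 0.111), and passed the threshold when the MT-/- DOX replicate 1 array was left out (log2 -0.30, adjusted p = 0.0484). The other alpha genes, Psma2, Psma3, Psma4 and Psma5, had log2 changes between -0.08 and 0.15.

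No gene of the beta ring was called, the catalytic subunits included. Psmb5, which carries the chymotrypsin-like site, had intensities of 2131 and 1227 with DOX against 2200.4 and 1885 with saline in MT-/- hearts, and 1956 and 1491 with DOX against 2171 and 1831 with saline in MT+/+ hearts, a difference of log2 -0.28 ± 0.17 (adjusted p = 0.371). Its 2 MT-/- DOX arrays differed from each other by more than any saline pair did, and without replicate 1 of that group the difference was log2 -0.47 (adjusted p = 0.0449). Psmb6, with the caspase-like site, had intensities of 1953 and 1643 after DOX against 1814 and 1758 after saline in MT-/- hearts, and 1875 and 1833 after DOX against 1755 and 1716 after saline in MT+/+ hearts, a difference of log2 0.05 ± 0.084 (adjusted p = 0.778) whose sign turned without the same array (log2 -0.01). Psmb7, with the trypsin-like site, had intensities of 2611 and 2625 after DOX against 2404 and 2876 after saline in MT-/- hearts, and 2679 and 3412 after DOX against 3276 and 3583 after saline in MT+/+ hearts, a difference of log2 -0.09 ± 0.099 (adjusted p = 0.621). Psmb4, a structural subunit and the beta ring gene with the smallest p, had intensities of 3401 and 2950.5 after DOX against 2984 and 2682 after saline in MT-/- hearts, and 2984 and 2734 after DOX against 2843 and 2458 after saline in MT+/+ hearts, a difference of log2 0.14 ± 0.087 (adjusted p = 0.369). DOX and saline arrays overlapped for each of these 4 genes. The structural subunits Psmb1, Psmb2 and Psmb3 had log2 changes between -0.10 and 0.07.

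Psmb10 encodes the inducible counterpart of Psmb7 and belongs to the immunoproteasome, the form of the core that interferon induces and that immune cells carry. It had intensities of 579.7 and 391 after DOX against 763 and 598 after saline in MT-/- hearts, and 631 and 528 after DOX against 803 and 578 after saline in MT+/+ hearts, a difference of log2 -0.36 ± 0.17 (adjusted p = 0.202) with overlapping treatments. Genes that belong with it but lie outside the symbol rule were read as a list. Of 12 tested genes of the inducible proteasome and antigen processing, 0 rose, 3 fell and 1 was positive, with a median of -0.31. Over all probe sets, 7.03% were called higher and 6.84% lower. Psmb9 was at log2 -0.51 ± 0.11 (1.43-fold lower, adjusted p = 0.0171), Psmb8 at log2 -0.50 ± 0.14 (adjusted p = 0.0514), B2m, the light chain of class I molecules, at log2 -0.52 ± 0.095 (1.43-fold lower, adjusted p = 0.00905), and Irf1, an interferon-induced transcription factor, at log2 -0.45 ± 0.12 (1.36-fold lower, adjusted p = 0.0391). The fall of the 9 macrophage markers, with a median of log2 -0.70, stood beside these values, and its part in them was not tested.

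Of the 3 activators, Psme1 and Psme4 fell. Psme1, the alpha subunit of the interferon-induced cap PA28, had intensities of 1367 and 1091 with DOX against 2401 and 2212 with saline in MT-/- hearts, and 1511 and 1296 with DOX against 2388 and 2044 with saline in MT+/+ hearts. Every DOX array lay below every saline array, and the change was log2 -0.78 ± 0.11 (1.72-fold lower, adjusted p = 0.00269). Psme4 (PA200), a single-chain cap of nuclei, had intensities of 1817 and 1817 after DOX against 2237 and 2879 after saline in MT-/- hearts, and 2028 and 2106 after DOX against 2785 and 2792 after saline in MT+/+ hearts, again with no overlap, and the change was log2 -0.45 ± 0.092 (1.37-fold lower, adjusted p = 0.0135). Its other 2 probe sets fell alike, by 0.54 and 0.51 on the log2 scale. The Psme4 call was lost when arrays were centred on their medians instead (log2 -0.37, adjusted p = 0.0657). Psme3 (PA28 gamma), the nuclear homologue, had intensities of 400.4 and 419 after DOX against 319 and 374 after saline in MT-/- hearts, and 392 and 413 after DOX against 299 and 415 after saline in MT+/+ hearts, a difference of log2 0.21 ± 0.12 (adjusted p = 0.321) with overlap. The 1 probe set annotated to Psme2, partner of Psme1, is shared with Psme2b and was left out.

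Counted by arrays instead of by the fit, 18 of the 66 probe sets had every DOX array above every saline array, where 9.61% of all probe sets did, and 4 had every DOX array below, where 8.83% did. Of these 18, 15 belonged to the regulatory particle and 3 to the core; the 4 were Psme1 and the 3 of Psme4.

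The stretches upstream of the genes that moved most are given because promoter motifs for proteasome genes are well described. RefSeq windows (GRCm38.p6) were at hand for 35 of the 42 genes, 38 windows in all, and the 250 bases before the start were searched on both strands for 3 short motifs. These were the antioxidant response element core TGACNNNGC, which NRF1 and NRF2 bind at proteasome genes, the CCAAT box, which NF-Y binds, and GAAANNGAA, the core of the interferon response element. Capitals mark the motifs, on either strand (a CCAAT box on the other strand reads ATTGG, and an interferon element there reads as its reverse complement). Sequences run 5′ to 3′ on the strand of the gene and end at the base before its start.
Psmd4, chr3:95042615-95042864, minus strand: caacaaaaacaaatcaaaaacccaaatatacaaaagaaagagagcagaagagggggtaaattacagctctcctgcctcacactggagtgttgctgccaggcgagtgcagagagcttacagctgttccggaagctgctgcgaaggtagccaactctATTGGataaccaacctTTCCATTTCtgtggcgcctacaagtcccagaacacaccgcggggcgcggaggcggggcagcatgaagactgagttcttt
Psmc1, chr12:100109952-100110201, plus strand: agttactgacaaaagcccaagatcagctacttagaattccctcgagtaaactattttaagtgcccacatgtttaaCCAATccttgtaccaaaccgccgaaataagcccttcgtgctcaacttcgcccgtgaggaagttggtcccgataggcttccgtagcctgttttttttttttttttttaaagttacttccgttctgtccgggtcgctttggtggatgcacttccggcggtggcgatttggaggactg
Psmd11, chr11:80428365-80428614, plus strand: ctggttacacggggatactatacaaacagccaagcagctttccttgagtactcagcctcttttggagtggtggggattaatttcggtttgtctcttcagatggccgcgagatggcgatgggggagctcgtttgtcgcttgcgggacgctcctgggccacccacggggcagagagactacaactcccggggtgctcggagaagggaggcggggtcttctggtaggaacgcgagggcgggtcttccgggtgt
Psme1, chr14:55578244-55578493, plus strand: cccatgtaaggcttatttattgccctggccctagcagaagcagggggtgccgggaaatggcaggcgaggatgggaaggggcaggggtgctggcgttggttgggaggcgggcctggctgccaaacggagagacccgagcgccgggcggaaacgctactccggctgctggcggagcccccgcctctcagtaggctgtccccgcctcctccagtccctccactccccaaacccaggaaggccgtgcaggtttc

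Psmd4 held a CCAAT box and an interferon element match, Psmc1 a CCAAT box, and Psmd11 and Psme1 none of the 3 motifs in this window. The antioxidant element occurred upstream of 5 of the 35 genes, or 5 of 38 windows, where 10.2% of all 32851 windows held it. The 5 genes are shown with up to 10 bases to each side.
Psmb5, chr14:54618024-54618052, minus strand: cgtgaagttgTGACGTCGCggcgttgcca
Psmb6, chr11:70525338-70525356, plus strand: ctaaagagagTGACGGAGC
Psmc6, chr14:45329587-45329615, plus strand: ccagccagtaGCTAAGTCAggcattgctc
Psmd9, chr5:123228149-123228177, plus strand: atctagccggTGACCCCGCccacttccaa
Psmd12, chr11:107479278-107479299, plus strand: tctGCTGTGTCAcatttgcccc

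Of these 5 genes only Psmd12 rose after DOX (log2 0.51), while Psmb5 (-0.28), Psmb6 (0.05), Psmc6 (0.18) and Psmd9 (0.10) were not called. The CCAAT box occurred in 15 of 38 windows, where 33.8% of all windows held it. It lay in 7 of 14 core windows, 5 of 18 of the regulatory particle and 1 of 3 of the activators. The rest were windows of Psmc3ip and Psme3ip1. Among the called-higher genes it occurred in 4 of 9 windows, which cover 8 genes. The interferon element occurred in 3 of 38 windows (Psmb3, Psmd4 and Psmd9), where 7.13% of all held it, and in neither Psme1 nor Psme4. The matches describe these letters in this window and are not evidence of binding.

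Within MT-/- hearts, 14 of the 66 probe sets rose after DOX, where 2.83% of all probe sets were called higher, and 1 fell, where 3.38% were called lower. By gene, on the standing probe set, 9 rose and 1 fell. On the log2 scale Psmd4 rose by 1.27 ± 0.11 (2.42-fold higher, adjusted p = 0.000897), Psmc1 by 0.90 ± 0.13 (adjusted p = 0.00657), Psmd11 by 0.89 ± 0.16 (adjusted p = 0.0162) and Psmd7 by 0.80 ± 0.13 (adjusted p = 0.0116). Psmd2 (0.70), Psma7 (0.69), Psmd12 (0.60), Psmd1 (0.57) and Psmc3 (0.47) also rose, as did the second Psmc2 probe set (0.50), and Psme1 fell (log2 -0.91 ± 0.15, adjusted p = 0.0116). The count of 15 was 8 when the MT-/- arrays were fitted alone. It was also lower without MT-/- DOX replicate 2 or without either MT-/- saline array. The same held without either MT+/+ DOX array, which enter through the shared spread. Calls over all probe sets fell as well with each of these arrays left out.

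Within MT+/+ hearts, 4 of the 66 probe sets rose after DOX, where 1.22% of all were called higher, and 0 fell, where 1.26% were called lower. The 4 were both bright probe sets of Psmd4 (log2 0.98 ± 0.11, adjusted p = 0.00624 for the brighter), Psmc1 (log2 0.96 ± 0.13, adjusted p = 0.0111) and Psmc3 (log2 0.53 ± 0.11, adjusted p = 0.0491). Psme1 had log2 -0.65 ± 0.15 (adjusted p = 0.0654) and was not called. At an unadjusted p under 0.05 there were 24 of the 66 in MT-/- hearts, where 20.6% of all probe sets were, and 21 in MT+/+ hearts, where 16.6% of all were. The count of 4 was lower with any single MT+/+ array left out, and calls over all probe sets fell with each of these omissions too.

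Set side by side, the changes had the same sign in both genotypes for 35 of 38 genes (92.1%), where 71.4% of all 13008 tested genes did. The size was larger in MT-/- hearts for 22 of the 38 (57.9%), where 54.9% of all genes had it so. The regulatory particle and assembly genes had medians of 0.36 in MT-/- and 0.31 in MT+/+ hearts, with 17 and 19 of 20 genes positive, and the core genes had medians of 0.0047 in MT-/- and 0.032 in MT+/+ hearts. The interaction, the DOX change in MT-/- minus that in MT+/+, was called for 0 of the 66 probe sets by limma, where 0.00% of all were called, and 1 had an unadjusted p under 0.05, where 2.32% of all did. The 3 with the smallest p were a dimmer Psmc6 probe set (-0.37 ± 0.16) and 2 of Psmd11 (0.39 ± 0.18 and 0.50 ± 0.25). The lowest adjusted p among the 66 was 0.9995. The larger count of calls in MT-/- hearts was therefore not matched by a called difference between the genotypes.

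**Figure D4:**
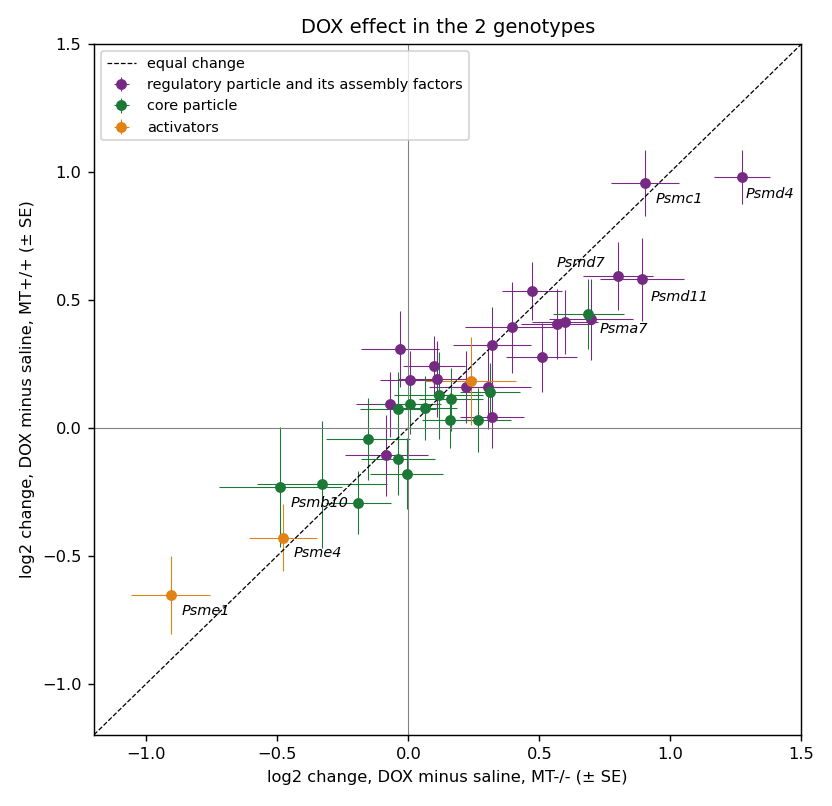
Log2 change after DOX (DOX minus saline) in MT-/- hearts (x axis) against that in MT+/+ hearts (y axis) for the 38 subunit, assembly factor and activator genes; points are limma estimates, bars ± SE, and the dashed line marks equal change. Psmd4 and Psmc1 lie highest in both genotypes and Psme1 lowest in both.

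Between genotypes, no proteasome probe set was called by limma under saline (0.186% of all probe sets were), under DOX (0.283% of all) or averaged over treatments (0.905% of all). At an unadjusted p under 0.05 there were 3 of the 66 under saline, where 8.62% of all probe sets were, 5 under DOX, where 7.39% of all were, and 5 averaged over treatments, where 13% of all were. These shares were near or below those over all probe sets, and the genes that follow are given only as those with the smallest p. Under saline the smallest p belonged to Psmb7 (log2 -0.38 ± 0.14, adjusted p = 0.517, MT-/- minus MT+/+), Psmd10 (log2 0.28 ± 0.12, adjusted p = 0.565) and a dimmer Psmd6 probe set (log2 -0.32 ± 0.13, adjusted p = 0.565). Under DOX it belonged to Psmd4 (log2 0.39 ± 0.11, adjusted p = 0.317), Psmd7 (log2 0.44 ± 0.13, adjusted p = 0.387) and a dimmer Psmd11 probe set (log2 0.37 ± 0.13, adjusted p = 0.502). Averaged, Psmd7 was at log2 0.34 ± 0.094 (adjusted p = 0.182), Psmd4 at log2 0.24 ± 0.075 (adjusted p = 0.235) and Psmb7 at log2 -0.29 ± 0.099 (adjusted p = 0.267). With 2 arrays per group these values do not show that the genotypes are alike.

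Genes around the proteasome were read from lists of known function, averaged over genotypes, where 7.03% of all probe sets were called higher and 6.84% lower. Of 13 tested assembly factors and bound proteins outside the symbol rule, 1 rose, 0 fell and 8 were positive, with a median of 0.06, a share of calls near that over all probe sets. The gene called was Uchl5, a deubiquitinase of the regulatory particle, with 628 and 814 after DOX against 418 and 426 after saline in MT-/- hearts, and 530.1 and 563 after DOX against 320.5 and 354 after saline in MT+/+ hearts, a change of log2 0.71 ± 0.11 (1.63-fold higher, adjusted p = 0.00456). The core maturation factor Pomp (log2 0.24 ± 0.080, adjusted p = 0.0836), the small lid protein Sem1 (log2 -0.18 ± 0.060, adjusted p = 0.0887) and Usp14, another proteasome-bound deubiquitinase (log2 -0.46 ± 0.16, adjusted p = 0.091), were not called.

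Of 9 tested genes that control proteasome transcription, 2 rose, 0 fell and 7 were positive, with a median of 0.18. They were Ngly1, the glycanase that NRF1 activation requires, at log2 0.53 ± 0.10 (1.44-fold higher, adjusted p = 0.0111), and Maff, a small Maf partner of NRF factors, at log2 0.71 ± 0.17 (1.63-fold higher, adjusted p = 0.026). Mafk (log2 0.46 ± 0.14, adjusted p = 0.0639) and Syvn1 (log2 -0.36 ± 0.12, adjusted p = 0.0923), a ubiquitin ligase for NRF1, were not called. Nfe2l1, which encodes NRF1 itself, was at log2 -0.02 ± 0.11 (adjusted p = 0.938), and Nfe2l2, which encodes NRF2, at log2 0.18 ± 0.18 (adjusted p = 0.591). The RNA level alone does not measure NRF1 activity, which also depends on steps that act on the protein, cleavage among them.

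A list of 18 genes around ubiquitin activation and delivery of substrates was read on 12, since 6 had no probe set of their own here. Of the 12, 3 rose, 0 fell and 10 were positive, with a median of 0.29. All but 1 of the 12 act in substrate delivery, so the count does not describe ubiquitin activation. The exception was the activating enzyme Uba6, with 77.6 and 76.7 after DOX against 100.4 and 106 after saline in MT-/- hearts, and 83 and 116 after DOX against 109 and 124 after saline in MT+/+ hearts, a difference of log2 -0.28 ± 0.11 (adjusted p = 0.125). Rad23b, a shuttle that brings tagged proteins to the proteasome, had intensities of 1055 and 1113 after DOX against 812 and 739 after saline in MT-/- hearts, and 1052 and 1061 after DOX against 758 and 842 after saline in MT+/+ hearts, a change of log2 0.44 ± 0.091 (1.35-fold higher, adjusted p = 0.015). Nploc4, a cofactor of the unfolding ATPase Vcp, was at log2 0.53 ± 0.14 (1.45-fold higher, adjusted p = 0.0419), and Faf1, another Vcp adaptor, at log2 0.42 ± 0.10 (1.33-fold higher, adjusted p = 0.0316). Bag6, a chaperone for misplaced proteins, was at log2 0.32 ± 0.11 (adjusted p = 0.108).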

How the data were processed

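RNA of 8 mouse hearts was measured as 1 linear intensity per probe set and array; per the submitters' processing notes the authors made the intensity values with GCOS 1.4. No source used here gives the signal algorithm, the scaling target or detection calls, and the number of arrays limits the precision. Symbols came from the platform annotation, in which 34958 probe sets had 1 gene, 932 had several and 9211 had none. After 64 control probe sets were removed, intensities were quantile-normalized, since deposited trimmed means differed by 8.08% where a limit of 5% had been set. Log2(intensity + 16) was fitted with limma 3.58.1 in R 4.3.3 (4 group means, eBayes with a mean-variance trend, 4 residual degrees of freedom, prior 4.66), for 24751 probe sets at or above the array median on at least 2 of 8 arrays. The log2 scale with this pseudocount understates changes of dim probe sets. P-values are two-sided with Benjamini-Hochberg adjustment; the script was tested on simulated data.

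Values by array were given for the catalytic and activator genes and for up to 3 genes per class with the smallest p, and up to 4 genes were named per list; other genes named were chosen after their values were seen. The members, lists and tests were chosen with earlier results of these data known. Alternatives were the deposited scaling, median centring, pseudocounts of 1 and 64, other filters, a replicate block, no variance trend, the mean of a gene's probe sets, only the compared groups, and each array left out.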

Additional observations from a re-analysis of the deposited data

How the results depend on the processing

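The count of proteasome probe sets called for DOX averaged over genotypes was 20 and stayed between 14 and 27 in every alternative run, and the regulatory particle count was 13 and stayed between 10 and 17. The regulatory particle and assembly genes kept a median of log2 0.30 to 0.40, with 6 to 11 of 20 called higher and 0 lower, and the core genes had a median of log2 -0.01 to 0.13. With a replicate block the core count was 6 instead of 3, where 27.1% of all probe sets were called instead of 13.9%. The MT+/+ count was 17 instead of 4, where 11.1% of all were called instead of 2.48%. The MT-/- count was 24 instead of 15, where 16.9% of all were called instead of 6.21%. The count for genotype averaged over treatments was 2 instead of 0, where 4.86% of all were called instead of 0.905%. The shared numbers are not stated to mark shared animals or days; replicate 1 deviations correlated at 0.36 to 0.542 between groups. With each array left out in turn, the core count ran from 1 to 4, the MT+/+ count from 0 to 5 and the MT-/- count from 2 to 14. Fitting only the compared groups gave 8 in MT-/- hearts. Psmb6 ran from log2 -0.012 to 0.111 over the same omissions, with the negative value without MT-/- DOX replicate 1. The cause of these shifts was not tested. Of 391 results of the 23 named genes under alternatives, 372 kept direction and side of the threshold, 12 lost the call, 6 gained it and 1 changed sign. Genes gained under the block were Psmb10 (lower, adjusted p = 0.0108), Psma6 (higher, 0.0461) and Psma1 (lower, 0.0409). Of the 15 core genes, 2 were thus called higher and 2 lower under the block. Psma6 was also called on the mean of its probe sets (0.0303). With 2 arrays per group, small changes and differences between genotypes may have been missed.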
